A study of Schizosaccharomyces pombe with 2 samples.

Results

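The mRNAs and pseudogenes at the ends of chromosomes I and II of the fission yeast Schizosaccharomyces pombe were examined for small RNAs. A gene or pseudogene was taken as a member when it lay wholly within 100000 nt of an end of chromosome I (5579133 nt) or chromosome II (4539804 nt). Position alone decided membership. The table held 149 such rows, of which 13 repeated the row of a pseudogene, leaving 136 members among 9111 features: 123 of the 5118 mRNAs of chromosomes I to III, and 13 pseudogenes. There were 37 members at the left end of chromosome I, 33 at its right end, 35 at the left end of chromosome II and 31 at its right end. Chromosome III was not part of the rule.

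Small RNAs of 10 to 40 nt were sequenced from exponentially growing cells in rich YES medium, to ask whether long noncoding RNAs that accumulate without the exonuclease Exo2 give rise to small RNAs. Exo2, known as Xrn1 in budding yeast, is a cytoplasmic exonuclease that digests RNA in the 5′ to 3′ direction. The wild-type (WT) strain was YAM2394 and the deleted strain (exo2Δ) was YAM2397, in which kanMX4 replaces exo2. Both carry the leu1-32, ura4-D18 and ade6-M210 alleles and are of the h+ mating type, and both were purchased. Each strain had 1 library, so values come without a replicate error, differences without a replicate check, and no test of the strains was made. Ratios therefore describe these libraries.

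Subtelomeres are the stretches of chromosome next to the telomeric repeats. In fission yeast they are packed as heterochromatin near the telomere, and they hold genes that exist in several nearly identical copies at different ends, among them the telomere-linked RecQ helicase genes. Further inward they hold many genes of nutrient uptake and metabolism that are poorly expressed in rich medium. A small RNA that matches several copies cannot be assigned to any of them, and the deposited table counts only reads placed at a single genomic position.

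The sequences of neighbouring copies show how much of a member such a read can tell apart. The helicase genes tlh1 (SPAC212.11, left end of chromosome I) and tlh2 (SPBCPT2R1.08c, right end of chromosome II) share 5662 nt and differ there at 1 position (99.98% identical). The chromosome I sequence ends inside tlh1, and tlh2 runs on for 353 nt (chrII:4532547-4532899). The 59 nt around the differing position, in capitals, and the first 120 nt of tlh2 that tlh1 lacks are shown because they are where reads of either copy can be placed. Sequences here and below are from the RefSeq assembly ASM294v3, read 5′ to 3′ on the strand of the gene.
tlh1, chrI:5331-5389, minus strand: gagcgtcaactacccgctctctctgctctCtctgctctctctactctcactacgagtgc
tlh2, chrII:4527158-4527216, plus strand: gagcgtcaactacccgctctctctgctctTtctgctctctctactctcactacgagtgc
tlh2 beyond tlh1, chrII:4532547-4532666, plus strand: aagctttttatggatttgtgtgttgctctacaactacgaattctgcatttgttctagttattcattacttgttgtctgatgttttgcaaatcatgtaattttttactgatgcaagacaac

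Other members are identical to a member at another end, so that no read of their coding sequence can be placed. The start of the coding sequence of ayr2 (SPAC977.08, left end of chromosome I) and of SPBC1348.09 (left end of chromosome II) is shown for such a pair, whose 711 nt of coding sequence are the same throughout.
SPAC977.08, chrI:44704-44763, plus strand: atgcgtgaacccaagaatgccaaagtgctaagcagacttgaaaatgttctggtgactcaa
SPBC1348.09, chrII:24916-24975, plus strand: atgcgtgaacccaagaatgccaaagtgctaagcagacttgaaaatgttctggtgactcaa

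Copies that have diverged keep some placeable sequence. The L-asparaginase genes SPAC977.12 (left end of chromosome I) and SPBPB8B6.05c (left end of chromosome II) differ at 13 of 1071 coding positions, and the 60 nt with the most differences hold 7 of them, in capitals. The L-asparaginase genes SPAC186.03 (right end of chromosome I) and SPBPB21E7.09 (left end of chromosome II) differ at 15 of 1083 positions, 5 of them in the first 60 nt. The aldo-keto reductase genes SPAC977.14c and SPAC750.01, at the left and right ends of chromosome I, differ at 62 of the 978 coding positions they share, 14 of them in the window shown.
SPAC977.12, chrI:57413-57472, plus strand: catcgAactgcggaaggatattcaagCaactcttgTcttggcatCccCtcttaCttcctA
SPBPB8B6.05c, chrII:54587-54646, minus strand: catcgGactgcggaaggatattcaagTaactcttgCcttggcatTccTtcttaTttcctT
SPAC186.03, chrI:5535198-5535257, plus strand: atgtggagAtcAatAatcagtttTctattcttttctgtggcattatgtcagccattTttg
SPBPB21E7.09, chrII:76318-76377, plus strand: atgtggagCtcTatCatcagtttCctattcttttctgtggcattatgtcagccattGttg
SPAC977.14c, chrI:60438-60497, minus strand: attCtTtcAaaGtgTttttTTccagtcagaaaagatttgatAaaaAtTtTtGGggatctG
SPAC750.01, chrI:5555986-5556045, plus strand: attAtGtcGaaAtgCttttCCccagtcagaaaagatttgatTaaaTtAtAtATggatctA

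The libraries held 13554798 (WT) and 13678386 (exo2Δ) feature reads. As a check of the labels, the coding exons of exo2 (SPAC17A5.14, chrI:1778445-1782740) held 251 WT reads and 26 exo2Δ reads, so that 10.3% of the WT number was still counted there. Over the whole gene, with the parts outside the coding exons, the numbers were 254 and 57. The source of the remaining reads was not tested. The 26 reads in the coding exons correspond to a density of 0.00651 tags per nt, which is used below as a level that a deleted gene still reached. Members took 4987 reads in WT and 4497 in exo2Δ, which are 0.0368% and 0.0329% of all feature reads. Member mRNAs are 2.40% of the mRNAs and took 0.332% of the mRNA reads in WT and 0.361% in exo2Δ.

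Small RNA reads were nearly absent from the outer members, and most of these members have little sequence in which a read could be placed. For each feature, the share of its 24-nt windows (24-mers) that have a single exact place in the genome was computed. It was at least 90% in 68 members, which are called placeable here, under 10% in 53 members, and between these limits in 15. Among the other mRNAs of chromosomes I to III, 4879 of 4995 were placeable and 28 were under 10%. The 53 members under 10% held 16 reads in WT and 35 in exo2Δ in all, and 49 of them had no read in either library. Of the 28 other mRNAs under 10%, 22 had no read. A lack of reads in these members can therefore not be read as a lack of small RNAs.

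The copies of these members lie mostly at other chromosome ends. A copy of at least 90% identity over at least 90% of the length was found in the genome for 61 members. It lay at another of the 4 ends for 59 of them, at the same end for 5 and elsewhere for 6, a member with several copies being counted in each. No read was counted in either library in 50 of these 61 members. The 4 ends differed in how far inward this reached, measured to the middle of each member. At the left end of chromosome I the outermost placeable member was the pseudogene SPAC212.07c, at 14.1 kb, with 4 members outside it. It stood alone there. None of the 12 members from 25 to 50 kb of that end was placeable, and the next placeable member was nhe1, at 52.4 kb. At the right end of chromosome I it was pdc102 (SPAC186.09, a pyruvate decarboxylase), at 25.5 kb, with 8 outside it. At the left end of chromosome II it was the pseudogene SPBC1348.11, at 34.0 kb, and the 11 members outside it had no read in either library. At the right end of chromosome II it was gal1, at 50.5 kb, and all reads of the 15 members outside it, 1 in WT and 27 in exo2Δ, were counted in tlh2. The outermost members of the other ends were tlh1, with 0 reads in WT and 7 in exo2Δ, SPAC750.08c and SPBC1348.15, each with no read in either library.

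**Figure D1:**
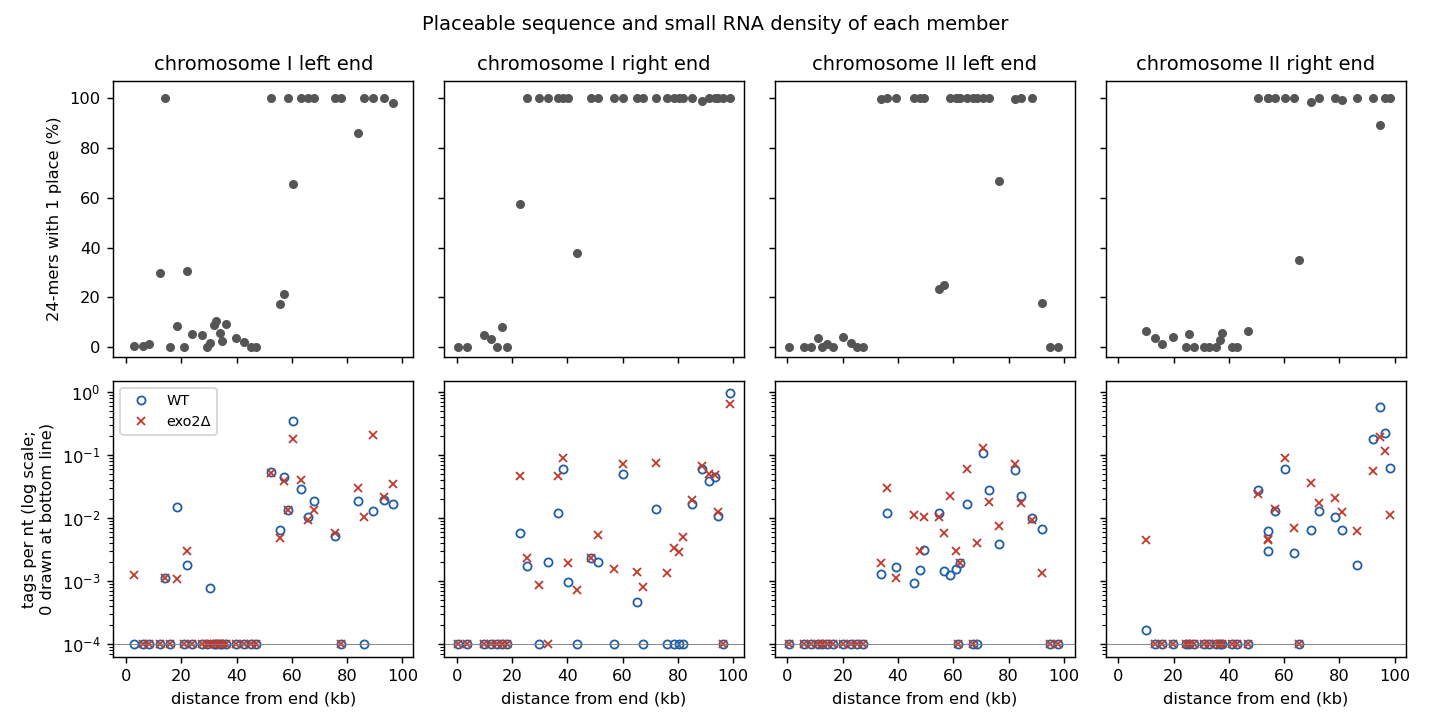
The upper panels plot the percent of 24-mers with a single exact place in the genome for each of the 136 members, and the lower panels its small RNA density in tags per nt (log scale, with 0 drawn on the bottom line), against the distance of its middle from the chromosome end in kb, for each of the 4 ends. Circles are WT and crosses exo2Δ, 1 library each. Members near the ends have few placeable 24-mers and mostly no reads. The outer stretch without placeable members is longest at the right end of chromosome II. At the left end of chromosome I a single pseudogene interrupts a similar stretch.

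Where reads can be placed, members still had a lower density than other mRNAs. The 68 placeable members had a median density of 0.0064 tags per nt in WT and 0.0111 in exo2Δ. The 4879 other placeable mRNAs had a median of 0.0496 in WT and 0.0460 in exo2Δ, so that the members' median was 7.74-fold lower in WT and 4.14-fold lower in exo2Δ. When a member had to have 90% of its 24-mers without another place within 3 mismatches, 58 members were left, with medians of 0.0103 and 0.0119. This restriction was chosen after seeing the data and was not applied to the other mRNAs, so the folds above hold only for exact 24-mers. The 151 placeable mRNAs lying 100 to 200 kb from the same ends had medians of 0.0401 and 0.0372, which are close to those of other mRNAs. In exo2Δ, 28 of the 68 placeable members (41.2%) were at or under the density left in the exons of the deleted gene, against 5.66% of the other placeable mRNAs. The densities compared are unlike, over whole features for these genes and over coding exons only for exo2. Over all 136 members the median density was 0.00032 in WT and 0.0015 in exo2Δ, and 56 members had no read in either library, 4 of them placeable. The read numbers behind these medians are small, 12.5 reads in WT and 20.5 in exo2Δ for the placeable members against 101 and 93 for the other placeable mRNAs. Members and other mRNAs come from the same libraries, and features are not replicates, so these medians carry no test. Fewer cells with a transcript and less of it per cell cannot be told apart in such bulk samples.

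**Figure D2:**
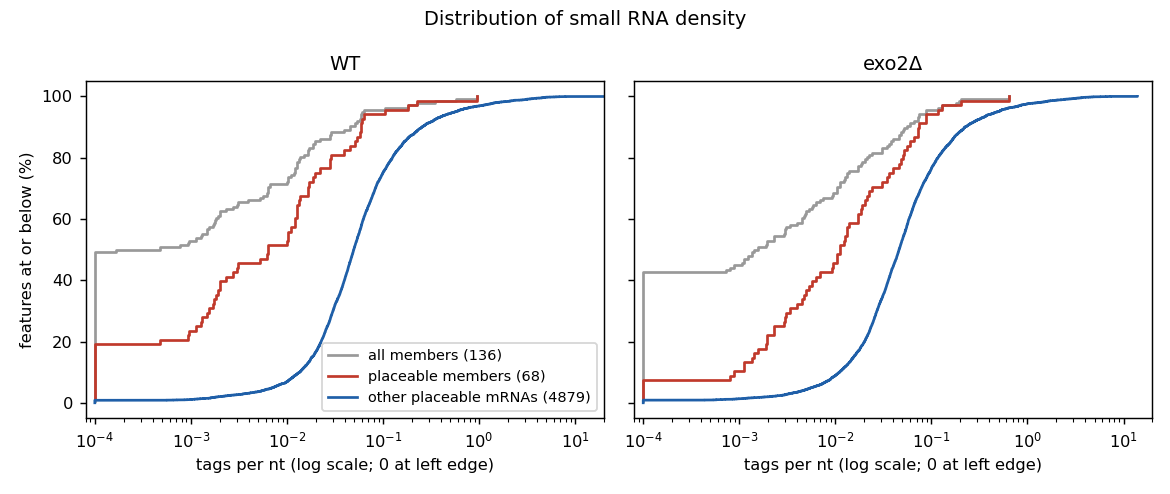
Each line gives the percent of features (vertical axis) at or below a small RNA density in tags per nt (horizontal axis, log scale, 0 drawn at the left edge), in WT and in exo2Δ. The line of the 68 placeable members lies to the left of that of the 4879 other placeable mRNAs in both libraries, with medians of 0.0064 and 0.0496 tags per nt in WT.

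All 4 ends had lower densities than other mRNAs. Among placeable members the median density was 0.0131 in WT and 0.0133 in exo2Δ at the left end of chromosome I (12 members), and 0.0115 and 0.0157 at the right end of chromosome II (14 members). It was lower at the right end of chromosome I, 0.0020 in WT and 0.0042 in exo2Δ (24 members), and at the left end of chromosome II, 0.0018 and 0.0098 (18 members). The lower pair of medians was 24.8-fold and 27.4-fold under the other placeable mRNAs in WT. These folds rest on few reads. The median placeable member held 3 WT reads at each of these ends, and 8 of 24 and 3 of 18 held none. In exo2Δ the right end of chromosome I was 11.04-fold and the left end of chromosome II 4.71-fold under the other placeable mRNAs. The median members there held 4.5 and 18 exo2Δ reads. These differences between ends carry no test. The few members with many reads decided the sums: the 5 members with the most reads held 62.3% of all member reads in WT and 38.3% in exo2Δ.

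Pooled over the 4 ends, density was higher further inward. Over all members in steps of 25 kb, the median was 0 in both libraries in the outer 50 kb, 0.0084 in WT and 0.0118 in exo2Δ from 50 to 75 kb, and 0.0106 and 0.0125 from 75 to 100 kb. The outermost step held only 1 placeable member. The 13 placeable members from 25 to 50 kb had medians of 0.0017 in WT and 0.0023 in exo2Δ, the 28 from 50 to 75 kb had 0.0084 and 0.0133, and the 26 from 75 to 100 kb had 0.0119 and 0.0148. Spearman's rho between distance and density over the 136 members was 0.58 in WT and 0.64 in exo2Δ, and over the 68 placeable members 0.30 and 0.33. These values describe features of the same libraries. The 13 placeable members from 25 to 50 kb come from the right end of chromosome I (7) and the left end of chromosome II (6) only, which have the lower densities. Within the ends the order was not steady. At the right end of chromosome I the medians of placeable members in WT were 0.0020, 0.0012 and 0.0109 over the steps from 25 kb inward, and at the left end of chromosome I they were 0.0189 from 50 to 75 kb (5 members) and 0.0091 from 75 to 100 kb (6 members). Over all members distance and the placeable share were also correlated (rho 0.64), and these cannot be told apart without the restriction to placeable members.

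Values on either side of the limit of 100 kb varied widely. The innermost members were isp3 (SPAC1F8.05) with 17 reads in WT and 35 in exo2Δ, SPAC922.04 with 599 and 411, SPBPB10D8.06c with 0 and 0, and ecl3 (SPBC8E4.12c) with 17 and 3. The next genes inward were SPAC1F8.06 with 37 and 38 reads, SPAC922.03 with 83 and 144, SPBPB10D8.07c with 0 and 0, and SPBC8E4.03 with 137 and 295.

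The strains were compared through the ratio of densities, exo2Δ over WT. The log2 ratio was taken after adding 1 read to both libraries, for features whose mean over the libraries was 10 reads or more, and a difference past 2-fold was called higher or lower. Only 48 of the 136 members passed the filter. Of these, 11 (22.9%) were higher in exo2Δ, where 3.9% of all 5875 features that passed were higher, and 2 (4.17%) were lower, where 6.72% of all were lower. With sn(o)RNAs as the scale the split was 11 higher (22.9%) and 4 lower (8.33%), against 1.32% and 10.47% of the other mRNAs. As deposited, the mRNAs 100 to 200 kb from the same ends had 13 of 141 higher (9.22%) and 16 lower (11.3%). Of all other mRNAs that passed, 2.18% were higher and 5.02% lower. The median log2 ratio of the 48 members was 0.31, that of the 4682 other mRNAs -0.16 and that of all features -0.13. Of the 11, 5 had fewer than 10 reads in WT and passed the filter only through exo2Δ, so the count cannot be read apart from the filter. When at least 10 reads were asked in WT alone, 6 of 46 members (13.0%) were higher and 5 (10.9%) were lower, against 1.85% and 5.38% of the other mRNAs. This filter leaves out members low in WT and lets in members low in exo2Δ, so its counts are partly fixed too. SPAC212.06c (14 and 1 reads), SPBPB10D8.04c (10 and 2) and ecl3 (17 and 3) were lower with under 10 reads in exo2Δ.

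A count that needs no filter went the same way. Of the 68 placeable members, 46 (67.6%) had more reads in exo2Δ, 14 (20.6%) had fewer and 8 had equal numbers. Among the other placeable mRNAs, 36.8% had more and 60.8% had fewer, and among those 100 to 200 kb from the ends, 46.4% and 49.0%. Reads appeared only in exo2Δ in 9 placeable members and only in WT in 1, against 21 and 23 of the 4879 other placeable mRNAs. The other mRNAs had a median of 101 WT reads against 12.5 for the members, so these counts are at unlike depth. At the right end of chromosome I, 8 of 33 members had reads in exo2Δ only, from 1 to 5 reads each. They include SPAC186.03, which is not placeable. Among placeable features under the filter, 18 of 28 members had more reads in exo2Δ and 3 fewer, against 97 and 117 of 265 other mRNAs. The sum over placeable members was 3164 WT reads and 3606 exo2Δ reads, 1.14-fold more, and its direction rested on few members. It was 3093 and 2935 without str3 and sul2, and 1710 and 2856 without SPAC922.04, pho1 and SPBC8E4.02c, which held the most WT reads among placeable members. The sum also leaves out pho84 (1203 and 405 reads), which falls just short of placeable, with 89.5% of its 24-mers in a single place. Over all 136 members the sum went the other way, with 4987 reads in WT and 4497 in exo2Δ.

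**Figure D3:**
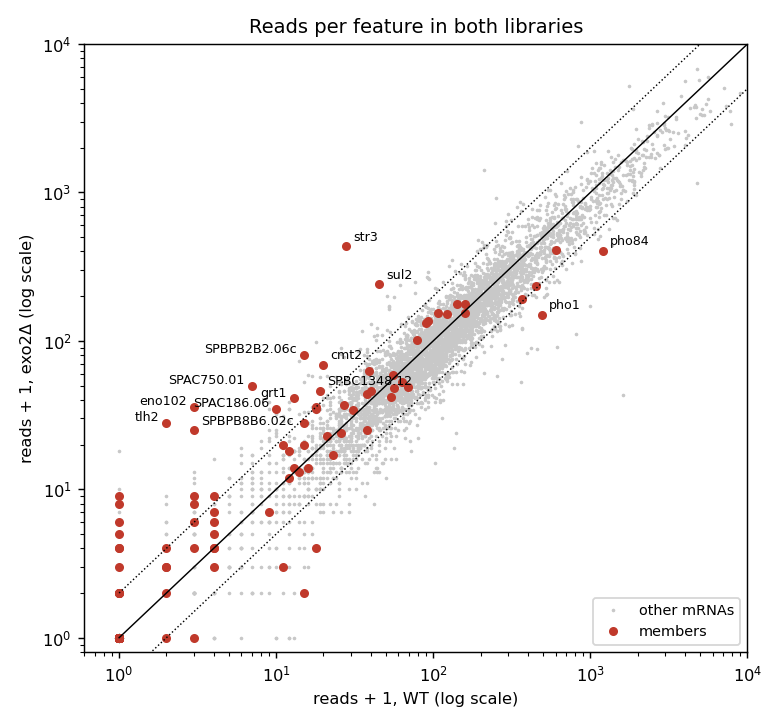
Reads plus 1 in WT (horizontal axis) and in exo2Δ (vertical axis), both on log scales, for the 136 members (red) and the other mRNAs (grey), with lines at equal numbers (solid) and at 2-fold (dotted). The 11 members higher and the 2 members lower past 2-fold with a mean of at least 10 reads are named. Among the members, str3, with 27 and 432 reads, is the highest point above the upper line. Other mRNAs with more reads than the axes reach are not drawn.

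The telomere-linked helicase genes tlh1 and tlh2 are the outermost members at their ends. They encode RecQ-type DNA helicases, a family that unwinds DNA in repair and recombination. For tlh2 (chrII:4526885-4532899, plus strand), 1 WT read and 27 exo2Δ reads were counted. The density was 26.9-fold higher in exo2Δ, with an exact binomial 95% interval of 4.44 to 1103, which covers counting error only, as do all such intervals here. Its placeable 24-mers lie in 2 stretches, 47 nt around the differing position and 376 nt at its 3′ end (chrII:4532524-4532899), together 7.03% of the gene. The coding exon, which ends at 4532644, held 0 reads in WT and 20 in exo2Δ, and the gene after it held 7 in exo2Δ. For tlh1 (chrI:1-5662, minus strand), 0 WT reads and 7 exo2Δ reads were counted, or 2.33-fold more when WT is set to a floor of 3 reads. The exact interval of tlh1 starts at 1.44. The 24 placeable 24-mers of tlh1 all span the differing position, and none of its 24-mers lacks another place within 3 mismatches. The third helicase gene, SPAC212.06c (chrI:18042-18974), went the other way, with 14 reads in WT and 1 in exo2Δ, and 8.35% of its 24-mers have a single place. Its mean is under the filter.

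The highest log2 ratio of any member that passed the filter (3.95) was that of str3. The str3 gene (SPAC1F8.03c, chrI:88201-90300, minus strand) encodes a plasma membrane transporter of iron-binding siderophores. It held 27 WT reads and 432 exo2Δ reads, and its density was 16.0-fold higher in exo2Δ (10.8 to 24.5). Its single coding exon held 26 and 420 of these reads. Its neighbour shu1 (SPAC1F8.02c), which encodes a cell-surface protein of heme uptake, held 0 and 8 reads. The density of shu1 was 2.66-fold higher with WT set to the floor of 3 reads, and its exact interval starts at 1.70. In fission yeast both genes belong to those repressed when iron is plentiful. The sulfate transporter gene sul2 (SPAC869.05c, chrI:5505583-5508782) held 44 WT reads and 239 exo2Δ reads, and its density was 5.42-fold higher in exo2Δ (3.92 to 7.66). The urea transporter gene SPBPB8B6.02c held 2 and 24 reads, a 12.0-fold higher density (2.97 to 105), whereas the urea transporter gene SPAC869.03c held 1 and 3.

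Several other transporter genes were within 2-fold. The arginine and lysine transporter gene cat1 (SPAC869.11) held 157 reads in WT and 177 in exo2Δ, the proline transporter gene put4 (SPAC869.10c) 37 and 43, and the cysteine transporter gene SPBPB10D8.01 (chrII:80899-83357) 141 and 177. The last was the member of the left end of chromosome II with the most reads. The sodium-proton exchanger gene nhe1 (SPAC977.10), the outermost member of the left end of chromosome I with over 100 reads, held 157 and 152, and the gluconate symporter gene ght3 (SPAC1F8.01) held 38 and 62. The list of 16 genes annotated as transporter or permease held 9 placeable members, 7 of which passed the filter with log2 ratios from 0.17 to 3.06. Over the whole list 8 passed, 2 of them higher and 1, pho84, lower, where 3.9% and 6.72% of all features were; of the 2, SPBPB8B6.02c passed only through its exo2Δ reads. The transporter gene SPBPB10D8.04c, under the filter, held 10 and 2 reads, a density 5.01-fold lower (1.07 to 47.0), and 17.8% of its 24-mers have a single place.

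The 2 members that were lower in exo2Δ past 2-fold lie next to each other, 92 to 95 kb from the right end of chromosome II, and both are genes of phosphate acquisition. The pho84 gene (SPBC8E4.01c, chrII:4444125-4446200, plus strand) encodes the inorganic phosphate transporter and pho1 (SPBP4G3.02, chrII:4446373-4449053, plus strand) a secreted acid phosphatase. In fission yeast both are induced when phosphate runs short. The pho84 gene held 1203 WT reads, 24.1% of all member reads, and 405 exo2Δ reads, and its density was 2.98-fold lower in exo2Δ (2.66 to 3.34). The pho1 gene held 489 and 149, a density 3.29-fold lower (2.73 to 3.98). Both other members further inward also had fewer reads in exo2Δ: SPBC8E4.02c, which shares bases with the start of pho84 on the same strand and has no annotated product here, held 366 and 190 (log2 ratio -0.95), and ecl3, which encodes an extender of chronological life span, held 17 and 3. A read in the shared bases counts for both features.

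Genes of carbon metabolism and of other enzymes had ratios on both sides of 1. The enolase gene eno102 (SPBPB21E7.01c, chrII:58136-59704) held 2 WT reads and 35 exo2Δ reads, and its density was 17.5-fold higher in exo2Δ (4.49 to 150). The catechol O-methyltransferase gene cmt2 (SPBPB21E7.04c) held 19 and 68, 3.57-fold higher (2.12 to 6.29). Enolase is an enzyme of glycolysis, and catechol O-methyltransferases add a methyl group to catechols. The isomerase gene SPAC186.06 held 9 and 34, 3.77-fold higher (1.77 to 8.94). The phosphoprotein phosphatase gene SPBPB2B2.06c (chrII:4469018-4471207) held 14 and 79, 5.63-fold higher (3.17 to 10.8). The enzyme genes with the most reads, pho1 and the aldo-keto reductase gene SPAC977.14c, had fewer in exo2Δ. The next 3 by mean reads had more in exo2Δ, within 2-fold. The pan5 gene (SPBPB2B2.09c, a ketopantoate reductase of pantothenate synthesis) held 91 and 136 reads, yhb1 (SPAC869.02c, which detoxifies nitric oxide) 106 and 153, and atd2 (SPAC922.07c, an aldehyde dehydrogenase) 78 and 101. Their log2 ratios were 0.57, 0.52 and 0.37. In all, the list of 39 members whose product is named as another enzyme held 26 placeable members, and 21 members passed the filter with a median log2 ratio of 0.45, 5 higher and 1 lower, where 3.9% and 6.72% of all features were. Of the 5, eno102, SPAC750.01 and SPAC186.06 had under 10 reads in WT. The 6 of these 21 with a log2 ratio below 0 were pho1, SPAC977.14c, the arylsulfatase gene SPBPB10D8.02c (53 and 41 reads), SPAC977.12, SPBPB8B6.05c and the dihydroxyacetone kinase gene dak2 (SPAC977.16c, 25 and 23).

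Diverged copies were compared within pairs. The aldo-keto reductase gene SPAC977.14c (chrI:59614-60907) held 450 WT reads and 234 exo2Δ reads (log2 ratio -0.94) and was the member with the most reads at the left end of chromosome I in WT. Its copy SPAC750.01 (chrI:5555716-5556768), the outermost member with reads at the right end, held 6 and 49, a density 8.15-fold higher (3.49 to 23.3). Their opposite directions are those of the 65.5% and 57.4% of their 24-mers that have a single exact place. Only 27.1% and 16.2% of their 24-mers lack another place within 3 mismatches, as many as the mapping allowed. Of the L-asparaginase genes, SPAC977.12 held 62 and 52 reads, its copy SPBPB8B6.05c 15 and 13 (log2 ratios -0.25 and -0.20), SPBPB21E7.09 10 and 19, and SPAC186.03 0 and 1. The fluoride exporter genes fex1 (SPAC977.11) and fex2 (SPBPB8B6.06c) held 8 and 6, and 2 and 8.

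The galactose genes gal1, gal10 and gal7 lie together from 50 to 57 kb of the right end of chromosome II and encode the enzymes that turn galactose into a form of glucose. The galactokinase gene gal1 held 55 reads in WT and 47 in exo2Δ, the epimerase gene gal10 22 and 16, and the uridylyltransferase gene gal7 20 and 22. Their log2 ratios were -0.23, -0.44 and 0.13, none past 2-fold, and the sign of gal7 turned with sn(o)RNAs as the scale (-0.10). The melibiase gene mel1 (SPAC869.07c), at the right end of chromosome I, held 0 and 5 reads.

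Regulators and genes of other functions included 2 more of the 11 higher members. The transcription factor gene grt1 (SPBPB8B6.04c) held 12 WT reads and 40 exo2Δ reads, and its density was 3.33-fold higher in exo2Δ (1.71 to 6.97). The transcription factor gene SPBC1348.12 held 18 and 45, 2.49-fold higher (1.42 to 4.58). With tlh2, str3, sul2, SPBPB8B6.02c, SPAC750.01, eno102, cmt2, SPAC186.06 and SPBPB2B2.06c these make up the 11, which were chosen for their ratio. The highest density of any member was that of SPAC922.04 (chrI:5479853-5480485, plus strand), an uncharacterized protein gene: 599 reads in WT and 411 in exo2Δ, or 0.946 and 0.648 tags per nt. Its log2 ratio was -0.55, and -1.01 over its coding exon. The GDT1-like gene gdt1 (SPAC186.05c) held 89 and 130 reads, aes1 (SPBPB21E7.07, of the phenazine biosynthesis family) 122 and 150, and the channel-family gene SPAC977.17 68 and 48.

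Of the 13 pseudogenes, 6 were placeable and 7 had no read in either library. They held 64 reads in WT and 53 in exo2Δ in all. SPBPB21E7.08 held 37 and 24, SPBPB10D8.03 13 and 12, and SPAC977.13c 11 and 11. None of these 3, the only ones past the filter, differed past 2-fold, and none of their intervals of the ratio left out 1.

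**Figure D4:**
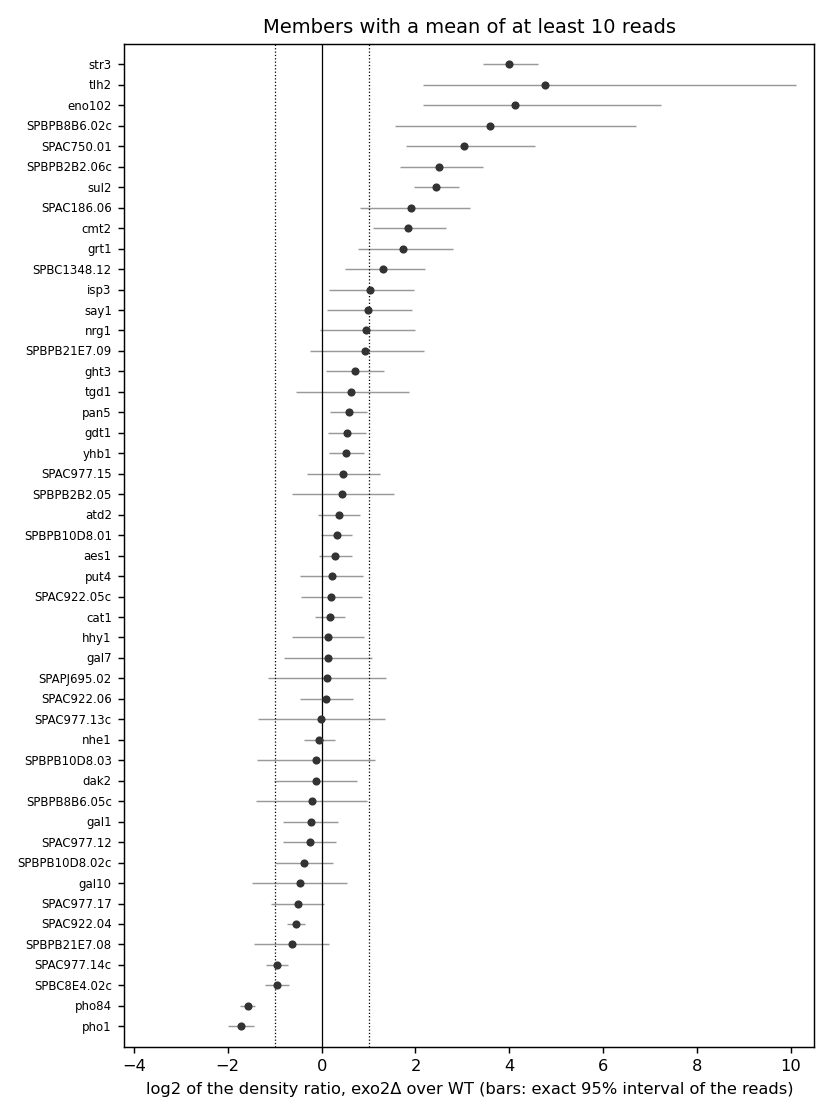
The log2 of the density ratio of exo2Δ over WT (horizontal axis) for each of the 48 members with a mean of at least 10 reads, without an added read, with the exact binomial 95% interval of its reads as a bar, 1 library per strain. Dotted lines mark 2-fold. Members are ordered by the log2 ratio after adding 1 read, with str3 first (16.0-fold higher) and pho1 last (3.29-fold lower).

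In the outer 50 kb few members could be compared between the strains. Of the 70 members whose middle lies there, 7 passed the filter, and 6 of these were called higher in exo2Δ, where 3.9% of all features were: tlh2, SPBPB8B6.02c, SPAC750.01, SPAC186.06, grt1 and SPBC1348.12. The first 4 of these had under 10 reads in WT and passed only through exo2Δ, so their call was partly fixed by the filter. Of the 66 members further inward, 41 passed, of which 5 were higher and 2 lower, where 3.9% and 6.72% of all features were. The outer group holds 51 members under 10% of placeable 24-mers and 14 placeable ones, so these 7 are a small share of what lies there.

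In gene structure, which the rule did not use, 82.1% of the member mRNAs have a single coding exon, against 52.6% of the other mRNAs. The share was 71.6% among the mRNAs 100 to 200 kb from the same ends. For all members the median length is 1277 nt against 1903 nt. XUTs, noncoding transcripts called by the study because they build up in exo2Δ, were looked for on the opposite strand. An antisense XUT, overlapping by at least 50 nt on the other strand, is annotated for 23 of the 68 placeable members (33.8%) and for 21.5% of the other placeable mRNAs. Over all members the share was 19.9% (27 of 136), and over all other mRNAs 21.2%. The 23 members with an antisense XUT had a median density of 0.0020 in WT and 0.0063 in exo2Δ, and the 45 without had 0.0109 and 0.0132. Of those that passed the filter, 3 of 11 with an antisense XUT and 6 of 29 without were higher, where 3.9% of all features that passed were higher. Among placeable member mRNAs, 71.0% of the reads in WT and 76.6% in exo2Δ fell in coding exons, which make up 67.3% of their length. The shares among the other placeable mRNAs were 76.9% and 77.8%.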

How the data were processed

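Small RNA reads of WT and exo2Δ were trimmed and mapped by the authors with Bowtie, keeping reads with a single place and allowing 3 mismatches, and deposited as a signal, the tag density in tags per nt of each feature. The submitters' processing notes name cutadapt, Bowtie and the ASM294v2 build. The study analysed small RNAs of 18 to 30 nt; whether the deposited values carry that filter was not determined. Positions are those of the deposited table, and 151 of 153 member coding exons have the same coordinates in the ASM294v3 annotation, whose sequence was used.

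The deposited signal times length was whole in WT, and in exo2Δ a multiple of 0.998, in 100% of 19343 rows (tolerance 0.001 reads); reads were recovered from it. Coding exon rows (10204) and repeated rows were left out of totals. Symbols and products came from RefSeq (135 of 136 members matched). Placeability used exact 24-mers, and bwa 0.7.19 for 3 mismatches; copies were found with blastn 2.17.0. Scripts ran in Python 3.11.15 with numpy 2.4.6, pandas 2.3.3 and scipy 1.17.1, and were tested on simulated data. Intervals are exact binomial at 95%. They cover counting error only: the libraries carried no molecular identifiers, so several reads can stem from 1 molecule. The floor was 3 reads. Counting used strand, as 273 of 1593 features nested in one of the other strand held more reads than it.

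Named members are exo2, the outermost member and the 2 of largest mean density at each end, the 6 largest ratios in each direction among members averaging 50 reads or more, the 3 pseudogenes with the most reads, tlh1, tlh2, gal1, gal7, gal10 and mel1; members past 2-fold, copies and their neighbours were named after their values were seen. Lists follow words in the product. Members and lists were chosen with earlier results of these data known. Alternatives changed the scaling, pseudocount, filter, placeability, overlap and threshold.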

Additional observations from a re-analysis of the deposited data

Results flagged for a closer look

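Signal lay in features outside the comparisons above. Within 100000 nt of the same ends, 128 noncoding features held 653 reads in WT and 1170 in exo2Δ. Many of these features overlap on the same strand, so these sums count some reads more than once. Merged by overlap they form 104 loci, and with only the feature of most reads taken from each locus the sums were 378 and 669. Among the 128, 17 features at 10 loci had a mean of at least 10 reads. Of the 17, 7 features at 4 loci were higher past 2-fold and 0 lower, at 1 library per strain and with no test, where 3.9% and 6.72% of all features were. The merging was chosen after seeing the data. The 83 XUTs there held 352 and 640 reads, counted per feature. In addition, 7 XUTs on a contig that is placed on no chromosome held 197 reads in WT and 283 in exo2Δ, 127 and 147 of them in XUT0002. The contig's sequence was not used here.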

How the results depend on the processing

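No paired analysis was possible because WT and exo2Δ are a single library each. The median log2 ratio of the members was 0.066 when scaled on sn(o)RNAs, which lowered log2 ratios by about 0.24, 0 without a filter and 2.32 over the 6 members wholly within 50000 nt that passed the filter. The other mRNAs had medians of -0.40 on the sn(o)RNA scale and -0.15 without a filter. Without a filter, 60 of the 136 members had equal reads in both libraries. Scaling on the median ratio of mRNAs raised log2 ratios by 0.13. The number higher was 21 of 136 without a filter (15.4%, against 2.72% of the other mRNAs). It was 2 of 19 with a mean of at least 50 reads (10.53% against 1.74%). It was 5 of 6 within 50000 nt, against 2.18%, and 7 of 48 past 4-fold, against 0.0854%. With at least 10 reads in WT alone, an alternative chosen after seeing the data, it was 6 of 46 (13.0% against 1.85%). The number lower was 4 of 48 when scaled on sn(o)RNAs (8.33%, against 10.47% of the other mRNAs). In coding exons only it was 4 of 39 (10.26% against 6.18%). It was 6 of 136 without a filter (4.41% against 5.77%) and 1 of 40 in placeable members (2.5% against 5.03%). It was 0 of 6 within 50000 nt, against 5.02%, and 0 of 48 past 4-fold, against 0.406%. With at least 10 reads in WT alone it was 5 of 46 (10.9% against 5.38%). The share of higher among changed members was 84.6% as deposited, 73.3% when scaled on sn(o)RNAs and 54.5% with the filter on WT alone. That filter lets in members with few exo2Δ reads, so the last share is partly fixed by it.

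The median density was 0.0065 in WT and 0.0121 in exo2Δ per nt that starts a unique 24-mer, 0.0064 and 0.0111 in placeable members, and 0.0103 and 0.0119 where 24-mers had no other place within 3 mismatches (58 members, added after seeing the data). At the left end of chromosome I all members had a median of 0 and placeable ones 0.0131 and 0.0133. At the left end of chromosome II the median in exo2Δ was 0.0019 and 0.0098, and at the right end it was 0.00017 and 0.0115 in WT, 0.0045 and 0.0157 in exo2Δ. Bins of 20000 nt and windows of 18 or 30 nt changed no call. Among 135 values of named members under other settings, 131 stayed within the counting interval. The sign of gal7, SPBPB10D8.03 and SPAC977.13c, all near 0, depended on the scaling. Depth limits most members: 28 placeable ones did not reach the filter.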
